A study of Mus musculus with 12 samples.

Results

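The T cell receptor (TCR) complex and the signalling proteins that act next to it were followed as a set of 38 genes in RNASeq counts of splenic T cells. The set was defined by a list of gene symbols, and a row of the count table was a member when its Ensembl identifier mapped to a listed symbol in the annotation of the mouse genome GRCm38. All 38 symbols were found among the 49315 genes of the table. The mice were 12-week-old males. They were wild type (WT) or lacked the gene of the microRNA miR-214 (miR-214-/-). For 14 days an osmotic minipump delivered either vehicle buffer (sham) or angiotensin II (Ang II), the pressor peptide of the renin-angiotensin system, at a dose of 490 ng/kg per day. Each of the 4 groups held 3 mice with 1 library per mouse, so the error terms describe the spread between mice. The deletion was global, so every cell type of the miR-214-/- mice lacked the microRNA and not T cells alone. T cells were taken from the spleen by magnetic negative selection, which leaves cells that carry none of the depleting markers.

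The αβ chains of the TCR bind peptide on MHC molecules but have no signalling domain of their own. The CD3 chains and the ζ chain carry the tyrosine motifs that Lck phosphorylates and to which Zap70 binds. Zap70 then phosphorylates the adaptors Lat and Lcp2, which gather phospholipase Cγ1, exchange factors for Ras and the Vav proteins. Calcium and calcineurin bring NFAT factors into the nucleus, diacylglycerol opens the Ras and protein kinase C branches, and phosphatases and ubiquitin ligases end the signal.

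The library totals ran from 21126874 to 29605988 counts, and each member had at least 539 counts in every library, so all 38 passed the filter on low counts in every comparison. Levels are given as CPM, which are counts relative to the library total, scaled by the trimmed mean of M values (TMM) so that most genes are equal between libraries. Messenger RNA was captured on poly(A), so the deleted mature microRNA could not be checked in these counts. Markers of the T lineage were present in all libraries, with summed levels of 14 genes between 5981 and 10694 CPM. The WT sham libraries had 9008 to 9903 CPM, the WT Ang II libraries 5981 to 6801 CPM, the miR-214-/- sham libraries 8682 to 10694 CPM and the miR-214-/- Ang II libraries 6516 to 9127 CPM. The 14 genes were Trac, Trbc1, Trbc2, Cd4, Cd8a, Cd8b1, Il7r, Bcl11b, Tcf7, Lef1, Ccr7, Ets1, Gata3 and Satb1. Those with the highest mean in WT sham were Ets1 at 1889, Tcf7 at 1492 and Il7r at 891 CPM. In WT the 14 log2 fold changes after Ang II with TMM scaling ran from -0.35 (Trac) to -0.68 (Bcl11b). In miR-214-/- they ran from -0.78 (Il7r) to 0.12 (Trac), with 11 negative and 3 positive. Whether the sum of the 14 genes measures T cell content was not tested. Markers of other cells were present as well. Of 14 listed red-cell precursor genes 13 were matched, and in the same order of groups they summed to 439 to 615 CPM, 1661 to 5951 CPM, 379 to 777 CPM and 695 to 4804 CPM. The sum of 12 neutrophil genes was 213 to 264 CPM, 1187 to 3591 CPM, 249 to 1018 CPM and 669.5 to 3262 CPM. For 20 cell cycle genes it was 745 to 923 CPM, 2404 to 3030 CPM, 1004 to 1455 CPM and 1263 to 2435 CPM. Of the other lists, the sums in WT sham and WT Ang II were 61.1 to 117 and 275 to 480.3 CPM for 7 basophil and mast cell genes, and 166 to 799 and 553 to 1878 CPM for 7 plasma cell genes. They were 18.7 to 34.4 and 50.5 to 62.3 CPM for 7 megakaryocyte genes, and 342 to 627 and 548 to 2375 CPM for 11 macrophage and monocyte genes. The sums of 8 listed NK cell genes, of which 7 were tested, were 390.3 to 535 and 244 to 359 CPM, and those of 10 B cell genes were 79.1 to 411 and 133 to 199 CPM. The WT sham and WT Ang II ranges overlapped for the B cell, the plasma cell and the macrophage and monocyte lists. In the miR-214-/- groups the sham and Ang II ranges of these 6 lists overlapped, apart from those of megakaryocytes at 28.4 to 46.8 and 47.0 to 59.2 CPM. The part of these lists in the results was not tested. No gene of these lists was at 0 in a whole group. In bulk samples, fewer T cells and less RNA per T cell cannot be told apart.

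The microRNA that the miR-214-/- mice lack, and its matches in member transcripts, are shown here because the loss of this microRNA is the difference between the genotypes. The matches are reference sequence and are not part of that difference. The mature miR-214-3p (chr1:162223438-162223459, plus strand, GRCm38.p6, sequence from RefSeq) is printed with its seed, bases 2 to 8, in capitals. The other lines are stretches of 3′ UTR from GRCm38 on the coding strand, with the bases complementary to that seed in capitals. They are the sites of Sit1 (chr4:43482550-43482577, minus strand) and Trat1 (chr16:48732534-48732561, minus strand), 2 adaptors with large differences below, of Cd3e (chr9:44999260-44999287, minus strand), and the second of 3 sites of Nfatc2 (chr2:168479999-168480026, minus strand).
miR-214-3p: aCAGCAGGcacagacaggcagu
Sit1: ctgggtcagggactCCTGCTGtcctggc
Trat1: atgccatctaaaaaCCTGCTGacaccct
Cd3e: cttttttcagccgcCCTGCTGccagctc
Nfatc2: acgaaaagcaactgCCTGCTGaccaaag

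The 7 letters CCTGCTG, searched on the coding strand of the longest annotated 3′ UTR of each gene, were found in 11 of 38 members, or 28.9%. They were found in 3015 of the 13067 other tested genes that had an annotated 3′ UTR, or 23.1%. The median UTR was 1279.5 bases in the members and 1134 bases in the other genes. The members with a site were Cd3e, Csk, Grb2, Nck1, Trat1, Sit1, Malt1, Ubash3a, Nfatc1, Nfatc2 and Nfatc3. A match of letters does not show that the microRNA binds there.

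The levels per kilobase (kb) of exon, which allow genes to be compared, spanned from 250.4 CPM per kb for Lck to 6.96 CPM per kb for Sos1 as means over the 12 libraries. Lck, the Src family kinase that starts TCR signalling, was followed by Lat at 179, Cd3d at 159.5, Cd2 at 148 and Ptprc at 139.6 CPM per kb. Sos1, an exchange factor for Ras, stood below the calcineurin subunit Ppp3ca at 8.58 CPM per kb. Rasgrp1, another exchange factor for Ras, stood at 66.8 CPM per kb. Of the NFAT factors, Nfatc3 was at 33.1, Nfatc1 at 27.4 and Nfatc2 at 9.74 CPM per kb. Exon lengths are the union of all annotated exons, so a gene with long rarely used exons is placed too low on this scale.

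The first question was how Ang II changed these genes in WT T cells. With TMM scaling, 22 of 38 members fell at an adjusted p under 0.05 (edgeR, Benjamini-Hochberg) and 0 rose, whereas with scaling to 14 T lineage genes 1 was lower and 13 were higher. Over all 16012 genes tested, 7.06% were called lower and 11.7% higher with TMM scaling, and 0.0937% lower and 58.6% higher with scaling to T lineage genes. The median log2 fold change was -0.41 over the members and -0.02 over all genes. Of the 38 members, 37 had a negative fold change, against 51.6% of all genes tested. In 32 members all WT Ang II libraries were below all WT sham libraries, which was so for 22.0% of all genes tested. Values after ± are standard errors (SE) derived from the log2 fold change and the F statistic of the edgeR test. The extremes were Trat1 at -0.95 and Ppp3ca at 0.016. All 4 CD3 chains were called, as were 3 of 5 surface receptors, 5 of 6 kinases, 5 of 11 adaptors and scaffolds, 2 of 4 exchange factors and phospholipase, 2 of 4 negative regulators and 1 of 4 of the calcineurin and NFAT genes. No member was called with an absolute log2 fold change over 1.

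**Figure D1:**
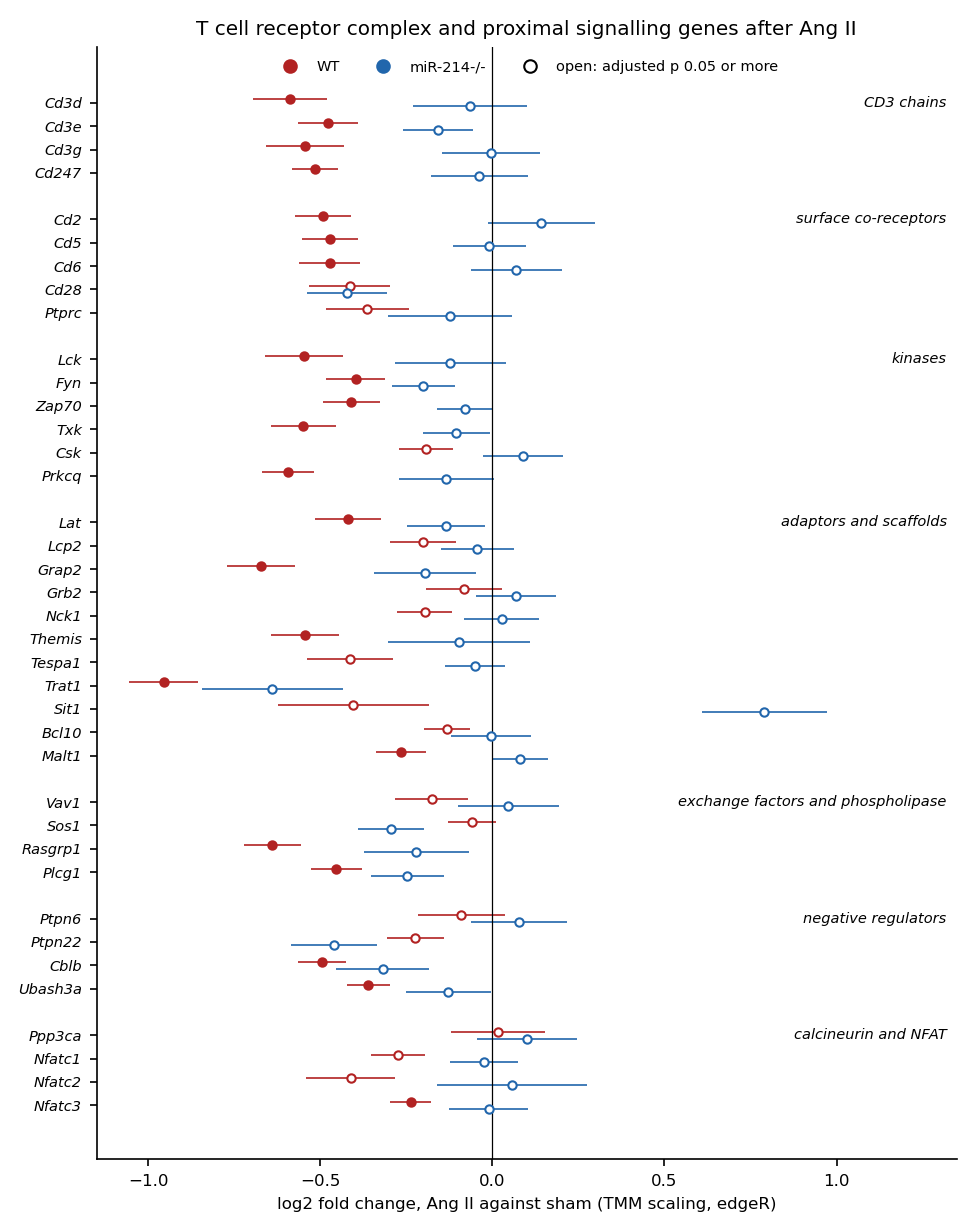
Log2 fold change of Ang II against sham (x axis, TMM scaling, edgeR) for each of the 38 members by role, in WT (red) and miR-214-/- (blue), with bars of 1 standard error and filled points for an adjusted p under 0.05. In WT 22 points are filled and lie left of 0 under this scaling, of which 1 is called lower, 2 are called higher and 19 are not called with scaling to T lineage genes, and in miR-214-/- no point is filled.

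The summed level of the 38 members in the individual libraries was 13012, 13236 and 14008 CPM in WT sham and 10823, 9949 and 9225 CPM in WT Ang II. It was 13400.0, 12344 and 12235 CPM in miR-214-/- sham and 9895, 12540.1 and 12908 CPM in miR-214-/- Ang II. There was no overlap between the WT groups, whereas miR-214-/- Ang II replicate 1 lay below all miR-214-/- sham libraries and the other two Ang II libraries lay among them. The 4 libraries with the lowest sums, which are the 3 of WT Ang II and miR-214-/- Ang II replicate 1, were also the 4 with the highest cell cycle sums, at 2404 CPM or more against at most 1455 CPM in the rest. The T lineage sum was 6516 CPM in miR-214-/- Ang II replicate 1 and 9127 and 9067 CPM in the other two libraries of its group. Red-cell genes stood at 4804 CPM and neutrophil genes at 3262 CPM in miR-214-/- Ang II replicate 2, whose member sum of 12540.1 CPM was within the range of miR-214-/- sham. The part of these other genes in the result was not tested.

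**Figure D2:**
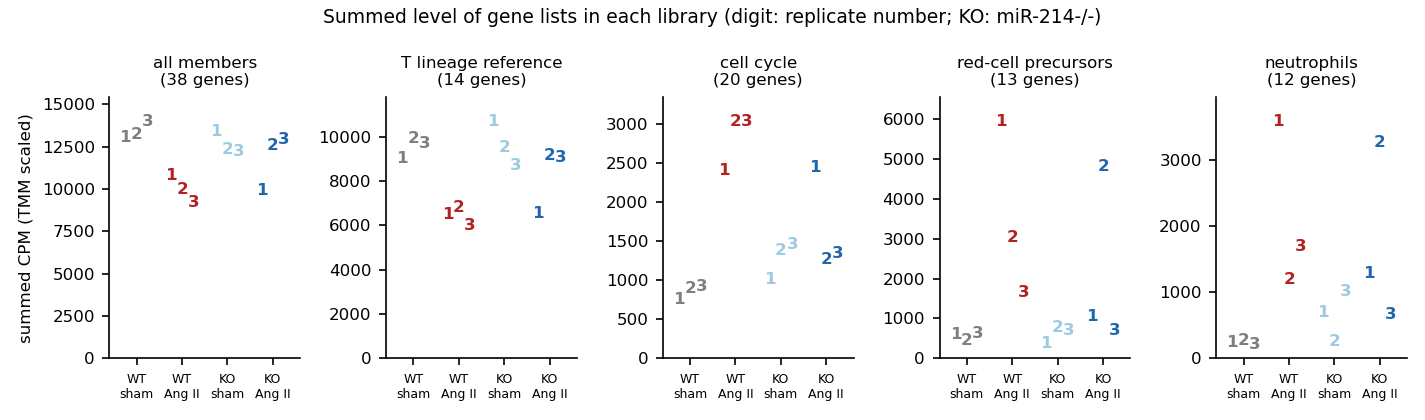
Summed TMM-scaled CPM (y axis) of the 38 members and of 4 marker lists in each of the 12 libraries by group (x axis), with digits for the replicate number. With TMM scaling the members and the T lineage genes are lowest in the 3 WT Ang II libraries and in miR-214-/- Ang II replicate 1, where the cell cycle genes are highest.

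The CD3 chains are the signalling part of the receptor, with Cd3d, Cd3e and Cd3g as the γδε module and Cd247 as the ζ chain. Gene positions are those of GRCm38. Cd3d (ENSMUSG00000032094, chromosome 9, 44981786 to 44987339, plus strand) stood at 296, 344 and 364 CPM in WT sham and at 235, 233 and 191 CPM in WT Ang II. Cd3d stood at 331, 308 and 289 CPM in miR-214-/- sham and at 235, 371 and 278 CPM in miR-214-/- Ang II. In WT the groups were apart and the miR-214-/- groups overlapped, with replicate 2 of miR-214-/- Ang II the highest library of all. Cd3e (ENSMUSG00000032093, chromosome 9, 44998740 to 45009627, minus strand) was at 398, 435 and 460.0 CPM in WT sham and at 331, 299 and 284 CPM in WT Ang II. Cd3e was at 417, 428 and 387 CPM in miR-214-/- sham and at 328, 371 and 401 CPM in miR-214-/- Ang II. Every WT Ang II library was below every WT sham library, and the miR-214-/- groups overlapped. Cd3g (ENSMUSG00000002033, chromosome 9, 44969572 to 44980431, minus strand) stood at 369, 411 and 427 CPM in WT sham and at 298, 291 and 227 CPM in WT Ang II. Cd3g stood at 389.8, 367 and 338 CPM in miR-214-/- sham and at 306, 436 and 346 CPM in miR-214-/- Ang II. Again the WT groups were apart, with WT Ang II replicate 3 the lowest, and the miR-214-/- groups overlapped. Cd247 (ENSMUSG00000005763, chromosome 1, 165788681 to 165877277, plus strand) was at 315, 315 and 328 CPM in WT sham and at 217, 238 and 205 CPM in WT Ang II. Cd247 was at 341, 275 and 290.0 CPM in miR-214-/- sham and at 242, 333 and 305 CPM in miR-214-/- Ang II. Its groups too were apart in WT and overlapped in miR-214-/-. In WT the log2 fold changes were -0.59 ± 0.11 (SE) for Cd3d, -0.48 ± 0.087 for Cd3e, -0.54 ± 0.11 for Cd3g and -0.52 ± 0.067 for Cd247, with edgeR adjusted p of 0.0139, 0.0137, 0.0199 and 0.00520. The largest of these falls is 33.4% (Cd3d) and the smallest 28.2% (Cd3e), and with scaling to T lineage genes the same 4 log2 values were -0.039, 0.071, 0.00093 and 0.031, none of them called.

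The 4 chains kept similar proportions to each other. Cd3d made up 20.9% to 24.5% of the summed CD3 CPM over the 12 libraries, Cd3e 24.6% to 31.3%, Cd3g 25.0% to 28.9% and Cd247 20.0% to 23.1%. The lowest share of Cd3e and the highest of Cd3d and Cd3g were all in miR-214-/- Ang II replicate 2. Cd3g, Cd3d and Cd3e lie within 40056 bases on chromosome 9, and the starts of the divergent pair Cd3g and Cd3d are 1355 bases apart. Cd247 is on another chromosome. Some of the exon bases of Cd247 are shared with other annotated genes, whose counts came to 28.5% of those of Cd247, and the sources used here do not give the strand setting of the counting. For Cd3e the same share was 1.77%.

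**Figure D3:**
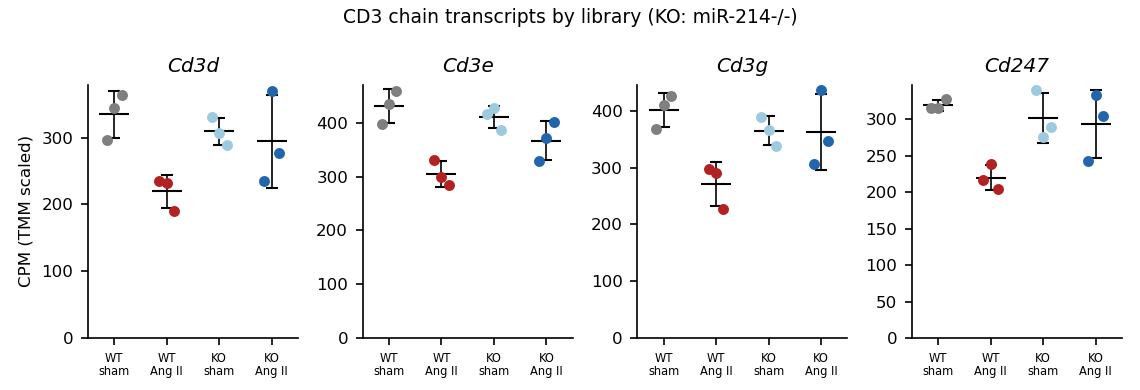
TMM-scaled CPM (y axis) of the 4 CD3 chain genes in the 3 libraries of each group (points), with the mean and SD as black bars and KO for miR-214-/-. All WT Ang II points lie below all WT sham points under this scaling, the CD3 log2 differences lie between -0.039 and 0.071 with scaling to T lineage genes, and the miR-214-/- groups overlap.

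Among the surface receptors, Cd2 is an adhesion receptor that brings Lck and Fyn to the contact zone. Cd2 (ENSMUSG00000027863, chromosome 3, 101275899 to 101287939, minus strand) stood at 285, 296 and 307 CPM in WT sham and at 224, 213.5 and 185 CPM in WT Ang II. Cd2 stood at 281, 236 and 236 CPM in miR-214-/- sham and at 221, 331 and 278 CPM in miR-214-/- Ang II. In WT the groups were apart, the miR-214-/- groups overlapped, and both highest and lowest miR-214-/- values were found after Ang II. Cd5 and Cd6 are scavenger receptor family members that tune the strength of the TCR signal. Cd5 (ENSMUSG00000024669, chromosome 19, 10717116 to 10739002, minus strand) was at 327, 341 and 368 CPM in WT sham and at 242, 271 and 223 CPM in WT Ang II. Cd5 was at 326, 292 and 298 CPM in miR-214-/- sham and at 264, 315 and 328 CPM in miR-214-/- Ang II. Cd6 (ENSMUSG00000024670, chromosome 19, 10789341 to 10830058, minus strand) was at 414, 430.2 and 476 CPM in WT sham and at 312, 344 and 282 CPM in WT Ang II. The WT Ang II values of both lay below all WT sham values. Cd6 was at 430.4, 339 and 340.4 CPM in miR-214-/- sham and at 340.5, 404 and 416 CPM in miR-214-/- Ang II, and for Cd5 and Cd6 alike the miR-214-/- groups overlapped. Cd2 fell by 28.9% in WT (log2 -0.49 ± 0.081, edgeR adjusted p = 0.0100), Cd5 by 27.9% (-0.47 ± 0.083, adjusted p = 0.0122) and Cd6 by 27.9% (-0.47 ± 0.088, adjusted p = 0.0151), and all 3 were slightly positive with scaling to T lineage genes at 0.055, 0.075 and 0.074. Cd28, the costimulatory receptor for B7 ligands, had a log2 fold change of -0.41 in WT with an edgeR adjusted p of 0.0504. Ptprc, the CD45 phosphatase that keeps Lck ready, had -0.36 with an edgeR adjusted p of 0.0761.

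Of the kinases, Lck had the highest level per kb. Lck (ENSMUSG00000000409, chromosome 4, 129548344 to 129573641, minus strand) stood at 774, 866 and 938 CPM in WT sham and at 653, 568 and 515 CPM in WT Ang II. Lck stood at 839.5, 728 and 773 CPM in miR-214-/- sham and at 556, 781 and 808 CPM in miR-214-/- Ang II. In WT the groups were apart, and only replicate 1 of miR-214-/- Ang II lay below the miR-214-/- sham libraries. Prkcq, protein kinase Cθ of the T cell synapse, gave the smallest p of the kinases. Prkcq (ENSMUSG00000026778, chromosome 2, 11172108 to 11301222, plus strand) was at 421, 445 and 480.4 CPM in WT sham and at 308, 292 and 279 CPM in WT Ang II. Prkcq was at 447, 391 and 395 CPM in miR-214-/- sham and at 302, 402 and 416 CPM in miR-214-/- Ang II. Its WT groups were apart, and in miR-214-/- only Ang II replicate 1 was outside the sham range. Txk, a kinase of the Tec family (ENSMUSG00000054892, chromosome 5, 72695978 to 72752777, minus strand), was at 164, 147 and 144 CPM in WT sham and at 112, 93.3 and 101 CPM in WT Ang II. Txk was at 154, 154 and 139 CPM in miR-214-/- sham and at 120.3, 149.9 and 144 CPM in miR-214-/- Ang II. Each WT Ang II value was below each WT sham value and also below each miR-214-/- Ang II value. In WT the log2 fold changes were -0.55 ± 0.11 for Lck, -0.59 ± 0.076 for Prkcq and -0.55 ± 0.096 for Txk, with edgeR adjusted p of 0.0203, 0.00482 and 0.0119. Fyn, a second Src family kinase, fell by 24.1% (log2 -0.40 ± 0.086) and Zap70 by 24.7% (-0.41 ± 0.084), with edgeR adjusted p of 0.0236 and 0.0193. Csk, which inhibits Lck by phosphorylating its tail, had -0.19 with an edgeR adjusted p of 0.124. With scaling to T lineage genes none of the 5 called kinases was called, with log2 values from -0.044 to 0.15, and Csk was called higher at 0.36.

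The adaptors held both the largest fall in WT and the member with the largest genotype difference. Trat1 (TRIM), a transmembrane adaptor that associates with the TCR (ENSMUSG00000030775, chromosome 16, 48730774 to 48772021, minus strand), stood at 53.0, 61.3 and 51.6 CPM in WT sham and at 30.2, 27.0 and 27.1 CPM in WT Ang II. Trat1 stood at 66.7, 63.9 and 69.7 CPM in miR-214-/- sham and at 29.1, 54.9 and 44.2 CPM in miR-214-/- Ang II. Both genotypes had their Ang II libraries below their sham libraries with no overlap, and miR-214-/- Ang II replicate 1 was near the WT Ang II values. In WT it fell by 48.4% (log2 -0.95 ± 0.10, edgeR adjusted p = 0.00270). Trat1 was also the only member called lower in WT with scaling to T lineage genes, at -0.40 (edgeR adjusted p = 0.0150), where 0.0937% of all genes tested were called lower. Grap2 (Gads), which links Lat to Lcp2 (ENSMUSG00000042351, chromosome 15, 80572594 to 80652854, plus strand), was at 473, 467 and 519 CPM in WT sham and at 337, 299.8 and 265 CPM in WT Ang II. Grap2 was at 477, 437 and 391.9 CPM in miR-214-/- sham and at 303, 419 and 414 CPM in miR-214-/- Ang II. In WT the groups were apart and the miR-214-/- groups overlapped. Grap2 fell by 37.2% in WT (log2 -0.67 ± 0.099, edgeR adjusted p = 0.00741), and its value with scaling to T lineage genes was -0.13 and not called.

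Of the other adaptors and scaffolds, 3 more were called in WT. Themis, a T lineage protein needed for thymocyte selection, had a log2 fold change of -0.54 ± 0.099, the scaffold Lat had -0.42 ± 0.097, and Malt1, the paracaspase that works with Bcl10 upstream of NF-κB, had -0.26 ± 0.073, with edgeR adjusted p of 0.0138, 0.0280 and 0.0468. The call of Malt1 was lost whichever of the 6 libraries was left out. Of the adaptors that were not called, Grb2 had -0.083, Bcl10 -0.13, Nck1 -0.20 and Lcp2 -0.20. Tespa1, which helps TCR signalling in thymocytes, had -0.41 with an edgeR adjusted p of 0.0604. With scaling to T lineage genes, Lcp2, Grb2, Nck1, Bcl10 and Malt1 were called higher, at 0.34, 0.47, 0.35, 0.42 and 0.28.

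Sit1, a transmembrane adaptor that dampens TCR signals (ENSMUSG00000028460, chromosome 4, 43482081 to 43483734, minus strand), stood at 33.4, 29.7 and 48.7 CPM in WT sham and at 31.7, 22.0 and 29.2 CPM in WT Ang II. The WT groups overlapped, and the highest sham library, replicate 3, was well above the other two. Sit1 stood at 33.3, 25.0 and 25.6 CPM in miR-214-/- sham and at 37.9, 58.0 and 48.9 CPM in miR-214-/- Ang II. In miR-214-/- all Ang II libraries were above all sham libraries, and they were also above all WT Ang II libraries. The response of Sit1 to Ang II was -0.40 ± 0.22 log2 units in WT (edgeR adjusted p = 0.230) and 0.79 ± 0.18 in miR-214-/- (edgeR adjusted p = 0.259). By DESeq2 the miR-214-/- value of 0.79 had an adjusted p of 0.00560. In simulated counts with an interaction of 1.5 log2 units, DESeq2 called 36 unchanged genes and edgeR 11.

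**Figure D4:**
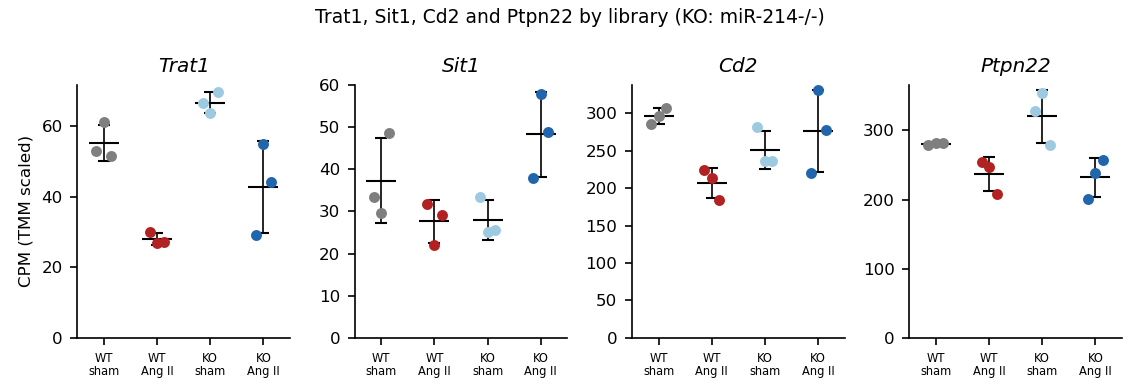
TMM-scaled CPM (y axis) of Trat1, Sit1, Cd2 and Ptpn22 in the 3 libraries of each group (points), with the mean and SD as black bars and KO for miR-214-/-. Trat1 has its Ang II points below its sham points in both genotypes, and Sit1 has its miR-214-/- Ang II points, between 37.9 and 58.0 CPM, above those of miR-214-/- sham and WT Ang II.

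Of the exchange factors and phospholipase, Rasgrp1 is the diacylglycerol-bound activator of Ras in T cells. Rasgrp1 (ENSMUSG00000027347, chromosome 2, 117279993 to 117343001, minus strand) was at 448, 416 and 433 CPM in WT sham and at 297, 274 and 248 CPM in WT Ang II. Rasgrp1 was at 461, 406 and 411 CPM in miR-214-/- sham and at 283, 397 and 413 CPM in miR-214-/- Ang II. In WT the gap between the groups was wider than the range within either, and miR-214-/- Ang II replicate 1 lay with the WT Ang II libraries. Plcg1, the phospholipase that makes diacylglycerol and the calcium-releasing inositol phosphate (ENSMUSG00000016933, chromosome 2, 160731300 to 160775760, plus strand), stood at 399.5, 439.6 and 445 CPM in WT sham and at 313, 323 and 288 CPM in WT Ang II. Plcg1 stood at 430.2, 413 and 413 CPM in miR-214-/- sham and at 321, 333 and 400.5 CPM in miR-214-/- Ang II. Both genotypes had all Ang II values below all sham values. Sos1 (ENSMUSG00000024241, chromosome 17, 80393751 to 80480453, minus strand) stood at 71.7, 72.6 and 82.2 CPM in WT sham and at 70.6, 73.3 and 70.1 CPM in WT Ang II. Sos1 stood at 84.9, 80.5 and 79.9 CPM in miR-214-/- sham and at 60.3, 63.0 and 76.2 CPM in miR-214-/- Ang II. Its WT groups overlapped and its miR-214-/- groups did not. In WT the log2 fold change was -0.64 ± 0.082 for Rasgrp1, -0.45 ± 0.073 for Plcg1 and -0.060 ± 0.069 for Sos1, with edgeR adjusted p of 0.00493, 0.00930 and 0.577. Vav1, an exchange factor for Rac, had -0.18 with an edgeR adjusted p of 0.274. With scaling to T lineage genes Rasgrp1 was at -0.095 and Plcg1 at 0.096, neither called, while Sos1 at 0.49 and Vav1 at 0.37 were called higher. Genes that share exon bases with Plcg1 had 11.9% as many counts as Plcg1.

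Of the negative regulators, Cblb is a ubiquitin ligase that sets the need for costimulation, and Ubash3a is a phosphatase-like protein that restrains TCR signals. Cblb (ENSMUSG00000022637, chromosome 16, 52031225 to 52208048, plus strand) was at 155, 156 and 174 CPM in WT sham and at 117, 113 and 108 CPM in WT Ang II. Cblb was at 156, 203 and 164 CPM in miR-214-/- sham and at 119, 141 and 158 CPM in miR-214-/- Ang II. In WT the groups were apart and the miR-214-/- groups overlapped. Ubash3a (ENSMUSG00000042345, chromosome 17, 31207873 to 31246892, plus strand) stood at 121, 118 and 131 CPM in WT sham and at 95.6, 98.4 and 89.5 CPM in WT Ang II. Ubash3a stood at 122, 105 and 101 CPM in miR-214-/- sham and at 83.2, 104 and 112 CPM in miR-214-/- Ang II. Here too the groups were apart in WT and overlapped in miR-214-/-. Cblb fell by 29.1% in WT (log2 -0.50 ± 0.069, edgeR adjusted p = 0.00633) and Ubash3a by 22.1% (-0.36 ± 0.063, adjusted p = 0.0121), and with scaling to T lineage genes both were positive and not called, at 0.053 and 0.19. Ptpn22 (ENSMUSG00000027843, chromosome 3, 103859795 to 103912247, plus strand), a phosphatase that acts with Csk on Lck, was at 279, 282 and 282 CPM in WT sham and at 255, 248 and 208 CPM in WT Ang II. Ptpn22 was at 329, 354 and 279 CPM in miR-214-/- sham and at 201, 238 and 257 CPM in miR-214-/- Ang II. Both genotypes had all Ang II libraries below all sham libraries, with log2 fold changes of -0.22 ± 0.082 (WT, edgeR adjusted p = 0.101) and -0.46 ± 0.13 (miR-214-/-, edgeR adjusted p = 0.287). Ptpn6 (SHP-1) had -0.090 in WT with an edgeR adjusted p of 0.649.

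The calcineurin and NFAT genes had the median WT log2 fold change nearest to 0 of the role groups, at -0.26, against -0.53 for the CD3 chains. Nfatc3 had a WT log2 fold change of -0.24 ± 0.060 and an edgeR adjusted p of 0.0356, which was above 0.05 whichever of the 6 libraries was left out. Nfatc1 had -0.27 ± 0.079 and Nfatc2 -0.41 ± 0.13, with edgeR adjusted p of 0.0525 and 0.0659. Nfatc2 (ENSMUSG00000027544, chromosome 2, 168476410 to 168601657, minus strand) was at 102, 114 and 146 CPM in WT sham and at 95.0, 89.7 and 83.8 CPM in WT Ang II. Nfatc2 was at 122, 79.4 and 95.6 CPM in miR-214-/- sham and at 78.1, 98.3 and 132 CPM in miR-214-/- Ang II. Its WT groups were apart, and in miR-214-/- the Ang II range enclosed the sham range. Ppp3ca, the catalytic subunit of calcineurin, was the member nearest to 0 in WT at 0.016 ± 0.14. With scaling to T lineage genes, Ppp3ca, Nfatc1 and Nfatc3 were called higher at 0.56, 0.27 and 0.31.

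The WT result was then examined for its dependence on scaling and on single libraries. With scaling to T lineage genes the median log2 fold change in WT was 0.14 over the members and 0.53 over all genes, and this scaling moves every gene by the same amount. Of all genes tested, 58.6% were called higher under it. The 13 members called higher were Csk, Lcp2, Grb2, Nck1, Bcl10, Malt1, Vav1, Sos1, Ptpn6, Ptpn22, Ppp3ca, Nfatc1 and Nfatc3. The summed CD3 CPM was 0.152 to 0.163 of the T lineage sum in WT sham and 0.152 to 0.167 in WT Ang II. Without WT Ang II replicate 3, 9 members were called lower in WT, against 1.22% of all genes tested, and they were Cd247, Cd2, Txk, Prkcq, Grap2, Themis, Trat1, Rasgrp1 and Cblb. Leaving out any other library gave between 15 and 23, against between 2.48% and 7.55% of all genes called lower. In all 6 of these fits 8 members were called, which were Cd247, Cd2, Txk, Prkcq, Grap2, Trat1, Rasgrp1 and Cblb. The share of all genes called in all 6 was not counted, so this number has no background to be set against. Fyn was called in 1 of the 6, Lck, Lat and Zap70 in 2 each, Cd3g in 3, and Malt1 and Nfatc3 in 0.

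**Figure D5:**
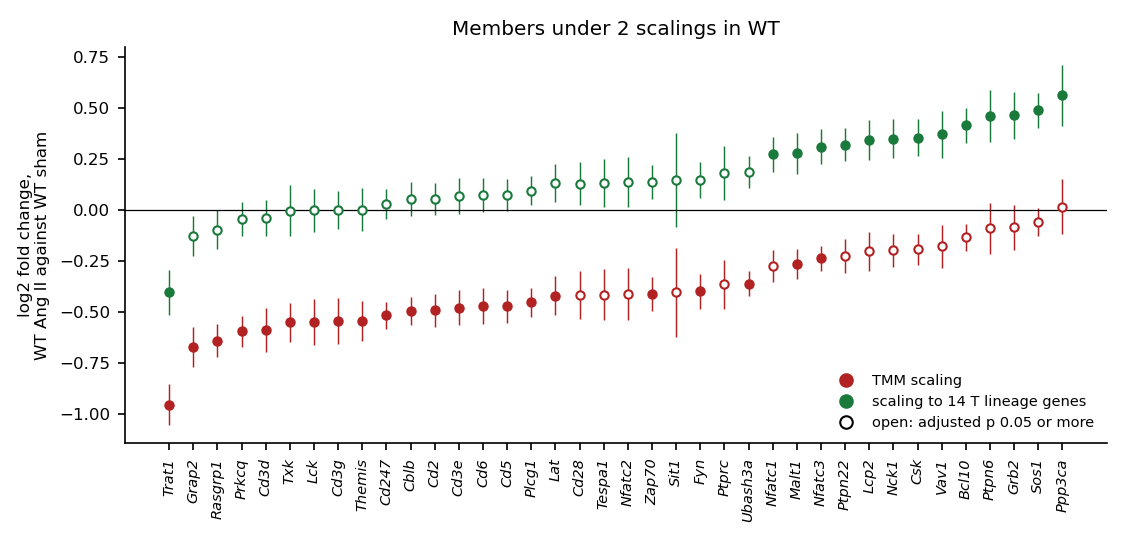
Log2 fold change of WT Ang II against WT sham (y axis) for the 38 members (x axis, ordered by the TMM value), with TMM scaling in red and scaling to 14 T lineage genes in green, bars of 1 standard error and filled points for an adjusted p under 0.05. Of the 22 filled red points below 0, the green point of Trat1 is filled below 0, those of Malt1 and Nfatc3 are filled above 0 and 19 are not filled, and 11 members with open red points have filled green points above 0.

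The second question was how Ang II changed the same genes in T cells without miR-214. By edgeR 0 members were called, as were 0.0% of all 15937 genes tested, and at an unadjusted p under 0.05 there were 5 lower members and 1 higher, against 6.34% and 5.82% of all genes. DESeq2 called 1 member, Sit1, which was higher, against 2.14% of all genes it tested. The median log2 fold change was -0.06 over the members and 0.03 over all genes, and with scaling to T lineage genes it was 0.17 over the members and 0.27 over all genes. In 6 members (Cd28, Fyn, Trat1, Sos1, Plcg1 and Ptpn22) all miR-214-/- Ang II libraries lay below all sham libraries, and 10.5% of all genes did so. In Sit1 they lay above, as in 8.83% of all genes. The largest values were 0.79 ± 0.18 for Sit1, -0.64 ± 0.21 for Trat1 and -0.46 ± 0.13 for Ptpn22, with edgeR adjusted p of 0.259, 0.326 and 0.287. Cd28 had nearly the same value in both genotypes, -0.41 ± 0.12 in WT and -0.42 ± 0.12 in miR-214-/-. The CD3 chains had -0.066 ± 0.17 (Cd3d), -0.16 ± 0.10 (Cd3e), 0.00 ± 0.14 (Cd3g) and -0.038 ± 0.14 (Cd247). Standard errors were larger than in WT for many members, as with Lck at -0.12 ± 0.16 and Themis at -0.098 ± 0.21, and in both of these miR-214-/- Ang II replicate 1 was the lowest library of the genotype. Without that replicate the median over the members was 0.04, the highest value that leaving out a library gave.

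The third question was whether the genotypes differed before Ang II. In sham mice edgeR and DESeq2 called 0 members, and edgeR called 0.0251% of 15913 genes tested. Among these genes DESeq2 called 75 higher and 17 lower. At an unadjusted p under 0.05 there were 2 lower members and 1 higher, against 2.41% and 4.26% of all genes. The median log2 difference of miR-214-/- from WT was -0.11 over the members and -0.01 over all genes, and 33 of the 38 were negative. The largest were -0.42 ± 0.20 for Sit1, -0.29 ± 0.18 for Nfatc2 and 0.27 ± 0.079 for Trat1, with edgeR adjusted p of 0.781, 0.825 and 0.701. The sham libraries of Sit1 and Nfatc2 overlapped between genotypes, and those of Trat1 were all higher in miR-214-/-, as were 5.4% of all genes. Cd2, Cd5, Lcp2 and Nfatc1 had all miR-214-/- sham libraries below all WT sham libraries, as had 4.79% of all genes.

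The genotypes were then compared under Ang II. By edgeR and DESeq2 0 members were called, and by edgeR 0.0% of 16215 genes tested. Among these genes DESeq2 called 9 higher and 24 lower. At an unadjusted p under 0.05 there were 15 members, all higher in miR-214-/- with TMM scaling, against 4.4% of all genes in that direction, and the smallest adjusted p was 0.569. The median log2 difference was 0.23 over the members and 0.00097 over all genes, and with scaling to T lineage genes it was -0.13 over the members and -0.33 over all genes. In 8 members (Cd3d, Cd3g, Cd247, Txk, Tespa1, Sit1, Malt1 and Cblb) all miR-214-/- libraries were above all WT libraries, and 8.02% of all genes were so. The largest differences were 0.80 ± 0.20 for Sit1, 0.61 ± 0.22 for Trat1 and 0.44 ± 0.11 for Txk, with an edgeR adjusted p of 0.569 for each, and with scaling to T lineage genes they were 0.43, 0.22 and 0.084.

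The last question was whether the Ang II response itself differed between genotypes, tested as the interaction over all 12 libraries. By edgeR 0 members were called, as were 0.00596% of 16770 genes tested, while DESeq2 called 1 member, Sit1, against 3.22% of all genes it tested. At an unadjusted p under 0.05 there were 15 members, all with a more positive response in miR-214-/- with TMM scaling, against 6.55% of all genes in that direction. The median interaction was 0.32 log2 units over the members and 0.01 over all genes, and with scaling to T lineage genes it was -0.04 over the members and -0.31 over all genes. Sit1 had the largest value at 1.22 ± 0.31 (edgeR adjusted p = 0.213, DESeq2 adjusted p = 0.0144), and with scaling to T lineage genes it was 0.87. Cd2 had 0.65 ± 0.19 and Cd6 0.56 ± 0.17, with edgeR adjusted p of 0.220 and 0.226. The CD3 chains had 0.54 (Cd3d), 0.34 (Cd3e), 0.56 (Cd3g) and 0.49 (Cd247), with edgeR adjusted p of 0.293, 0.293, 0.256 and 0.248. Cd28 at 0.0063 ± 0.18 was the nearest to 0, and Trat1 had 0.33 ± 0.25. Without miR-214-/- Ang II replicate 1, 10 members were called, all more positive in miR-214-/-, against 1.57% of all genes. These were Cd247, Cd2, Cd5, Txk, Prkcq, Grap2, Themis, Sit1, Malt1 and Rasgrp1.

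Members with a match to the miR-214-3p seed in the 3′ UTR were set beside those without. In sham mice the median log2 difference of miR-214-/- from WT was -0.12 over the 11 members with a match, of which 10 were negative. It was -0.09 over the 27 without, of which 23 were negative, and -0.01 over all genes. Under Ang II it was 0.20 with a match, 0.30 without and 0.00097 over all genes. All 11 members with a match and 25 of the 27 without were positive with TMM scaling. Trat1 was the single member with a match and a positive difference in sham. In WT the median response to Ang II was -0.27 over the 11 and -0.45 over the 27, and 5 of the 11 and 17 of the 27 were called lower, against 7.06% of all genes.

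Other genes of the TCR pathway were taken from a list of 57, which shares Cd4, Cd8a and Cd8b1 with the T lineage list. Of these, 20 were called lower and 1 higher by edgeR in WT with TMM scaling, against 7.06% and 11.7% of all genes. Under T lineage scaling 0 were called lower and 35 higher, against 0.0937% and 58.6% of all genes. In miR-214-/- edgeR called 0 of them, 2 lower and 5 higher had an unadjusted p under 0.05, against 6.34% and 5.82% of all genes, and DESeq2 called 1, the phosphatase gene Ptpn7, which was higher. Their median log2 fold changes were -0.16 (WT) and -0.03 (miR-214-/-). Among the smallest p in WT were those of Cd40lg, the CD40 ligand of helper T cells, at -0.69, Carmil2, which acts in CD28 costimulation, at -0.49, Dgka, the kinase that consumes diacylglycerol, at -0.56, the adaptor Skap1 at -0.52 and the inositol phosphate receptor Itpr3 at -0.47. Their edgeR adjusted p lay between 0.00429 and 0.00989. The one that rose was Mapk3 (ERK1), at 0.57 with an edgeR adjusted p of 0.0311. The largest rise in value was Rnf128 at 1.11, which was not called, and its interaction value was -1.41 with an edgeR adjusted p of 0.253. Of the 14 T lineage genes, 12 were called lower in WT with TMM scaling, against 7.06% of all genes, with a median of -0.55.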

How the data were processed

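The authors mapped trimmed paired-end reads of poly(A) libraries to GRCm38, assigned uniquely mapped exonic reads to genes with featureCounts (Subread 1.5.2) and deposited these raw counts without normalization. The strand setting and the annotation release are not given in the sources used here, so genes that overlap members, as with 9 of the 38, are uncertain. All 12 columns of counts were used, and 48970 of 49315 identifiers matched the GENCODE annotation of GRCm38, with 0.0705% of the counts in the rest. None of the 12 pairs of replicate libraries held identical counts.

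Counts were analysed in R 4.3.3 with the quasi-likelihood test of edgeR 4.0.16 at its defaults, with filterByExpr, TMM scaling and Benjamini-Hochberg adjustment over all genes tested. A call is an adjusted p under 0.05. Each comparison of 2 groups used its 6 libraries, and the interaction used all 12 with genotype and treatment as main effects. DESeq2 1.42.0 with its Wald test was an alternative. The others were RLE and library size scaling, scaling to the summed counts of 14 T lineage genes, all genes without a filter, genes with at least 10 counts throughout, a block for the replicate number, one joint fit of the 12 libraries, an added fold change limit of 1 on the log2 scale, and fits without each library. The functions were tested on simulated counts with 200 genes changed by 0.5 or 1.5 log2 units. For Ang II in WT, DESeq2 recovered 49 and 189 of them and called 44 and 72 unchanged genes. There edgeR recovered 0 and 174 and called 0 and 16 unchanged genes. For the interaction, DESeq2 recovered 13 and 172 and called 16 and 36 unchanged genes, where edgeR recovered 0 and 158 and called 0 and 11. Figures were drawn in Python 3.11.15 with matplotlib 3.10.9.

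Members given with a value in every library were the 4 CD3 chains, up to 12 called members by smallest p, the 3 largest absolute log2 fold changes in each comparison, and the highest and lowest level per kb. Other pathway genes are named where called, up to 6 by smallest p, or as the largest rise or fall, with one such gene not reported here, and Mapk3 and Ptpn7 were added after their values were seen. The members and lists were chosen with earlier results of these data known.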

Additional observations from a re-analysis of the deposited data

How the results depend on the processing

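The 22 members called lower in WT (7.06% of all genes tested) became 26 by DESeq2 (7.77% of all genes), 21 with RLE scaling (6.26%), 20 with library size scaling (5.28%), 20 with no filter (2.68%), 23 with at least 10 counts in every library (8.15%) and 23 in a single fit over 12 libraries (8.28%). With scaling to T lineage genes 14 were called, 1 lower and 13 higher, which follows from the shift of the median gene by that scaling from -0.02 to 0.53. Under it, which moves all genes alike, 32 of 38 members had a positive value. Of the called members whose values were followed under each alternative, those of Cd3e (0.071), Cd3g (0.00093), Cd247 (0.031), Cblb (0.053), Plcg1 (0.096), Cd2 (0.055), Ubash3a (0.19) and Cd5 (0.075) turned from negative to positive. With an absolute log2 fold change over 1 required as well, 0 members were called in WT. Leaving out each library in turn gave 9 to 23 members in WT, against 1.22% to 7.55% of all genes, the lowest without WT Ang II replicate 3. For the interaction it gave 0 to 10, the highest without miR-214-/- Ang II replicate 1 (1.57% of all genes). The cause was not tested. For Ang II in miR-214-/- and for the interaction DESeq2 called 1 member each, Sit1, where edgeR called 0.

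With the replicate number as a block 18 members were called in WT (4.85% of all genes) and 0 in the other comparisons. The numbers were not taken as pairs, since same-numbered libraries deviated together with correlations from -0.56 to 0.20 and 2 of 12 libraries correlated best with their own number. With 3 mice a group, differences of several standard errors could go uncalled, as with the interaction of Cd2 at 0.65 ± 0.19. The lack of a call therefore does not exclude a difference of that size.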
